A study of Homo sapiens with 8 samples.

Results

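The clustered protocadherins are a family of cell surface adhesion proteins encoded side by side in 3 gene clusters (alpha, beta and gamma) on chromosome 5. The members were the protein-coding genes of that chromosome whose symbols begin with PCDHA, PCDHB or PCDHG, which gave 53 of the 60675 genes in the files. They comprised 15 alpha, 16 beta and 22 gamma genes between positions 140786136 and 141512981 of GRCh38, all on the forward strand. RNA-seq was performed on 4 isogenic cultures of H9 (WA09), an established human embryonic stem cell (hESC) line, with 2 samples per culture. P1 hESCs were at passage 40s, P2 hESCs at passage 100s, P3 hESCs at passage 200s and P4 hESCs at passage 300s, and no sample received a treatment according to the labels. According to the labels, all cells were kept feeder-free in mTeSR1 medium on Matrigel and were passaged with dispase, whereas the study's reagent list names iPSC-brew as the medium. The study describes P3 and P4 hESCs as carrying a copy number variation of the locus that holds TPX2 and BCL2L1. Each passage range is represented by 1 culture of 1 line, so that time in culture, copy number and the history of a culture cannot be told apart. Whether the 2 samples of a culture came from separate dishes is not given, so the spread between them may be technical. Where single cultures are compared, the p-values measure only this spread. Where P3 and P4 are compared with P1 and P2 hESCs, differences between the 2 cultures of a set also count as error. The 4 samples of each set are then 2 cultures with 2 samples each, tested as if all 4 were independent.

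In neurons, clustered protocadherins give single cells their own surface identity. Each cell switches on a small, largely random choice of alpha, beta and gamma promoters, and the proteins bind only to matching copies on a neighbouring cell. A typical alpha or gamma transcript joins 1 large variable exon, which encodes the extracellular, transmembrane and proximal cytoplasmic parts, to exons of a constant cytoplasmic tail that the whole cluster shares. Beta genes have no shared tail. Most variable exons have their own promoter with a short conserved sequence element around the letters CGCT, and promoter choice depends on the insulator protein CTCF, on cohesin and on DNA methylation. The C-type members (PCDHAC1, PCDHAC2, PCDHGC3, PCDHGC4 and PCDHGC5) lie at the ends of their clusters and are expressed more uniformly among neurons than the others.

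The letters CGCTG, which contain the CGCT of the conserved element, stood near the start of most members. All members that passed the thresholds were among these. In the RefSeq promoter table (GRCh38.p14, 250 bases before to 50 after a gene's start), 47 of the 53 members had an entry, and 39 of these 47 held CGCTG on the gene's strand between 100 bases before and 5 after the start. The windows below are 28 bases long on the forward strand, with CGCTG in capitals. They show the 8 members that passed the thresholds in any comparison and 4 of the most abundant members of the clusters. PCDHA11, the most abundant alpha member, is not among them, because its entry held no CGCTG in this range.

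PCDHA1, chr5:140786088-140786115: tggccacatgatgtCGCTGtacaccaca
PCDHA6, chr5:140827899-140827926: gagccgcatgatgtCGCTGtctaccatg
PCDHA10, chr5:140855843-140855870: aagccaccggatgtCGCTGtcgtccaca
PCDHAC2, chr5:140966367-140966394: gagcagtccgggttCGCTGtccgccact
PCDHB2, chr5:141094546-141094573: gagacgcggggtggCGCTGcagccttag
PCDHB5, chr5:141135181-141135208: aggacgcctggtggCGCTGcaggctaag
PCDHB12, chr5:141208645-141208672: gagacgcgtggtggCGCTGcaggataat
PCDHB16, chr5:141182312-141182339: agaacgcgtggtggCGCTGcaggttaag
PCDHGA3, chr5:141343769-141343796: aggcctcttagtgtCGCTGttgaccact
PCDHGB5, chr5:141397865-141397892: ctgactctgggcgcCGCTGttggccaaa
PCDHGA11, chr5:141420974-141421001: tgggctctaggcgcCGCTGctcaccaat
PCDHGC3, chr5:141475882-141475909: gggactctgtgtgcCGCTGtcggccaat

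The bases around the shared letters differed by cluster. GATGTCGCT was found on either strand in 9 of 13 alpha members with an entry, GGTGGCGCT in 13 of 14 beta members and GCGCCGCTG in 10 of 20 gamma members, and none of the 3 motifs was found in a member of another cluster. Among all 35116 promoter entries, these motifs occurred in 0.105%, 0.501% and 1.28%. The letters CGCTG alone are common, since 48% of all entries held them on either strand anywhere in the entry. Searched in the same way, 41 of 47 members (87.2%) held them. The 39 members given above were counted on the gene's strand near the start only, and the share of all entries was not counted in that range. CGCTG near the start is also not the same as the motif of a cluster. PCDHA4, PCDHA7 and PCDHA12 held GATGTCGCT but no CGCTG in that range. The windows of PCDHAC2, PCDHGA3 and PCDHGC3 shown above hold CGCTG without the motif of their cluster. The 3 motifs overlap in CGCT and were written down after the promoters had been read, so these shares are a description.

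The shared tail is visible at the end of the variable exon. The lines below give 14 bases of a variable exon in lower case and the first 16 bases of the constant exon in capitals, from GENCODE 29 transcripts, for 2 alpha and 2 gamma members whose transcripts have a single exon before the tail.

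PCDHA6: atcatgatgccaaaCCACGACAGCCCAACC
PCDHA10: accactctaggaagCCACGACAGCCCAACC
PCDHGB5: cccatcctgagttgCAAGCCCCGCCCAACA
PCDHGA11: cgacaagtaatcagCAAGCCCCGCCCAACA

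All 15 alpha members joined the constant exon at chr5:140978949-140979007, and all 22 gamma members the one at chr5:141494807-141494865. Exonic bases shared with another member made up 19.2% to 56.6% of an alpha gene and 27.6% to 64.4% of a gamma gene. Counted in windows of 100 bases, a median of 54.4% of the transcript sequence of an alpha gene, 92.3% of a beta gene and 56.9% of a gamma gene occurred in no other gene of the region. Reads from the constant exons can be assigned to a member only by RSEM's estimate, so expected counts of alpha and gamma members are less certain than those of beta members and are not independent of each other. In addition, exons of PCDHA10, PCDHB8, PCDHB9, PCDHB14, PCDHB15 and PCDHB16 overlap those of a gene outside the members on the same strand. Strand-specific counting cannot separate these. A gene on the opposite strand is overlapped by 8 alpha, 10 beta and 1 gamma members. The libraries were strand-specific, but the strand setting of the counting is not given in the sources used here.

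The samples held 26874878 to 38095589 expected counts, of which 5.89% to 18.5% came from mitochondrial genes. The share was highest in P1 replicate 2 (18.5%), P3 replicate 1 (18.4%) and P4 replicate 1 (17.2%) and did not exceed 9.84% in the other 5 samples. All 53 members passed the filter on low counts. A member counted as detected above 3 expected counts, a level of 0.073 to 0.103 CPM (counts scaled to library size). All 53 were detected in 6 samples and 52 in the other two, where PCDHB6 had 2 counts each. The summed level of the pluripotent stem cell markers lay between 3161 and 5033 TPM (a level scaled to transcript length and library size), and POU5F1, a core pluripotency factor, between 1095 and 2421 TPM in single samples.

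Clustered protocadherins were transcribed at low levels in all cultures, and in the beta cluster a few members carried most of the signal. Together the members held 0.0257% to 0.0372% of the expected counts of a sample, and 29 of 53 had a mean under 1 TPM over the 8 samples. Between genes, levels are compared in TPM, which accounts for transcript length. PCDHB2 (mean 13.6 TPM), PCDHGC3 (11.4 TPM) and PCDHB5 (11.3 TPM) were the most abundant, and PCDHB1 (0.0525 TPM) was the least abundant. The 3 most abundant beta members, PCDHB2, PCDHB5 and PCDHB15, held 68.3% to 80.7% of the summed beta TPM. Their alpha counterparts, PCDHA11, PCDHAC2 and PCDHA10, held 44.7% to 52.9%, and in the gamma cluster PCDHGC3, PCDHGA10 and PCDHGB7 held 34.9% to 65.7%. The number of members at or above 1 TPM was 20 and 24 in P1, 18 and 19 in P2, 25 and 25 in P3, and 25 and 28 in P4 hESCs. No test was made of this number.

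**Figure D1:**
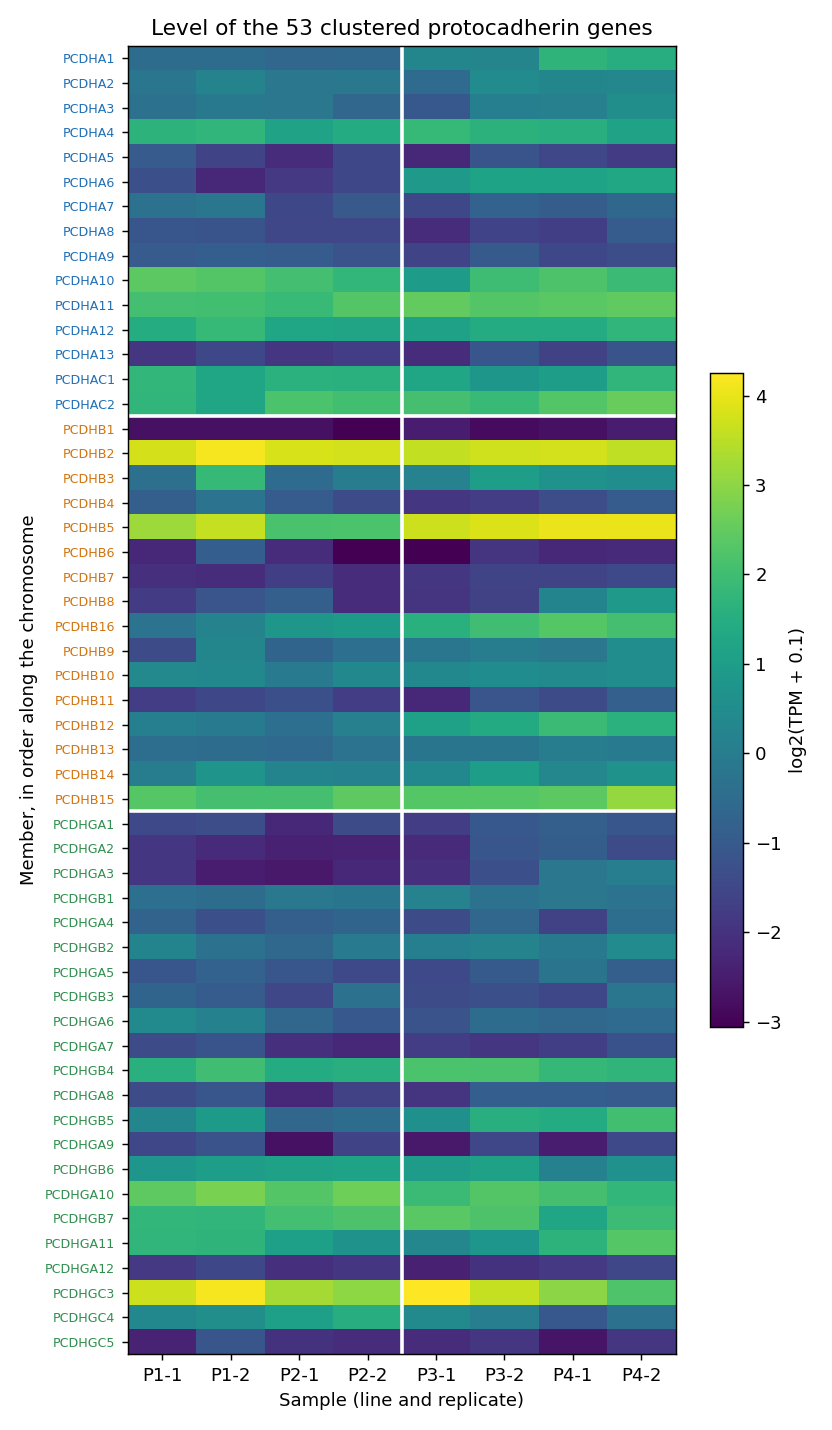
Level of each of the 53 members, as log2(TPM + 0.1), in the 8 samples; rows follow the chromosome (alpha in blue, beta in orange, gamma in green lettering) and the vertical white line separates P1 and P2 from P3 and P4 hESCs. PCDHB2, PCDHB5 and PCDHGC3 form the brightest rows in most samples, and the row of PCDHA6 changes from 0.11 to 0.31 TPM on the left to 1.77 to 2.37 TPM on the right.

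The clusters differed in how their summed level varied. The summed beta CPM was 81.3 and 122 in P1, 69.4 and 74.5 in P2, 149 and 121 in P3, and 153 and 134 in P4 hESCs. P2 hESCs had the lowest values and P4 hESCs the highest mean, and 1 sample of P1 hESCs reached slightly above the lower sample of P3 hESCs. The mean log2 level was 0.71 higher in P3 and P4 than in P1 and P2 hESCs (1.63-fold), against a pooled SD within cultures of 0.25. In the alpha cluster the difference was 0.35 (1.27-fold, SD within cultures 0.20), and in the gamma cluster it was 0.11 (1.08-fold, SD 0.27), smaller than the spread within cultures. Summed alpha and gamma levels overlapped between early and late cultures. The mean summed alpha CPM was 108 in P1, 74.9 in P2, 115 in P3 and 115 in P4 hESCs. P1 hESCs were thus near the late cultures in the alpha cluster, and P2 hESCs were lower. In summed TPM the differences were 0.23 for alpha, 0.45 for beta and -0.02 for gamma, so that the gamma difference turned direction. Without PCDHB2 the beta difference in CPM was 0.97. In P1, P3 and P4 hESCs the sample with the higher mitochondrial share had the higher summed CPM in all 3 clusters, and 2 of these 3 samples were late. The summed alpha CPM was 114 against 101 in P1, 129 against 101 in P3 and 132 against 99.4 in P4 hESCs, and the summed gamma CPM was 158 against 111, 171 against 116 and 109 against 101. In summed TPM the alpha order was the opposite in P1, P3 and P4 hESCs (24.8 against 26.1, 24.2 against 27, 30.6 against 33.1). The beta order was the opposite in P3 and P4 hESCs (40.2 against 47.2, 51.3 against 53.1) but not in P1 hESCs. The gamma order was the opposite in P4 hESCs alone (30.7 against 33.5). In the 5 samples under 15% mitochondrial counts the late over early differences in CPM were 0.28 for alpha, 0.76 for beta and 0.10 for gamma. The sums carry no test.

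**Figure D2:**
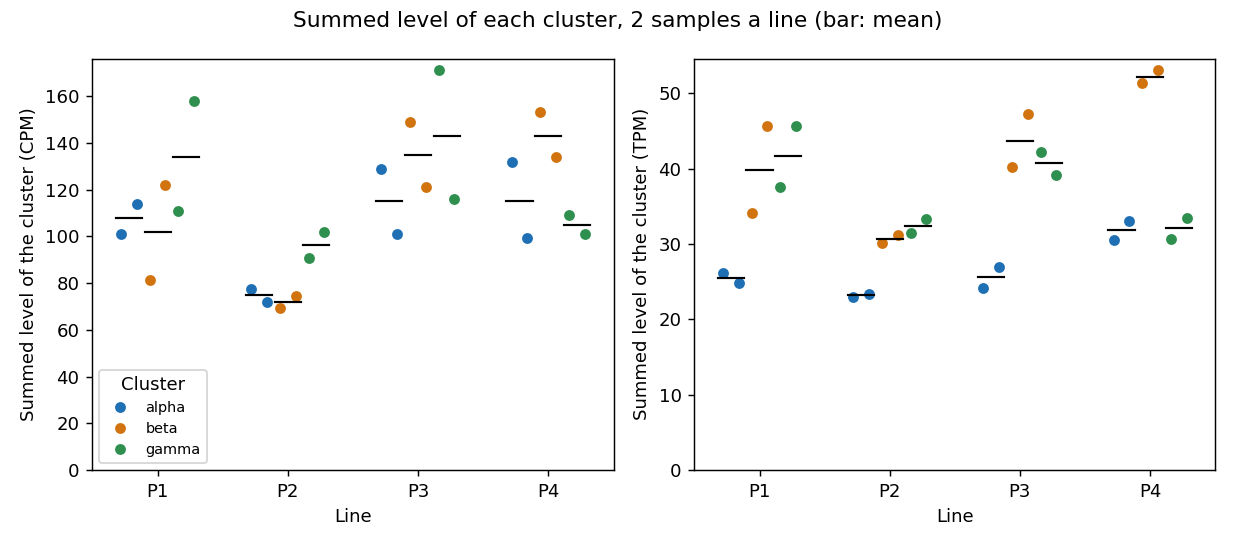
Summed level of the alpha, beta and gamma clusters in CPM (left) and TPM (right); points are single samples, with replicate 1 left of replicate 2, and bars are means of 2 samples. P2 hESCs had the lowest mean for the alpha and beta clusters on both scales, and the highest beta means (143 CPM and 52.2 TPM) were those of P4 hESCs.

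To find members that differed after long culture, P3 and P4 hESCs (4 samples) were compared with P1 and P2 hESCs (4 samples). The study's thresholds were kept, so that a gene passed if its log2 fold change exceeded 1 in size at an FDR under 0.01. The p-values came from edgeR (quasi-likelihood, Benjamini-Hochberg adjusted over the 19499 genes tested). Of the 53 members, 5 (9.43%) passed and all 5 were higher in P3 and P4 hESCs, namely PCDHA6, PCDHA1, PCDHB12, PCDHB16 and PCDHGA3. Over all genes tested, 2.2% passed, 1.06% higher and 1.14% lower. No member passed in the lower direction, where 1 member (PCDHGC4) had an unadjusted p under 0.05 and neither DESeq2 nor limma called any. In both directions 15 of 53 members had an unadjusted p under 0.05, and 25.5% of all genes tested did. The median log2 fold change of the members was 0.41, against 0.01 for all genes tested, and 38 members had a positive value. By cluster, the median was 0.27 for alpha, 0.60 for beta and 0.22 for gamma members.

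**Figure D3:**
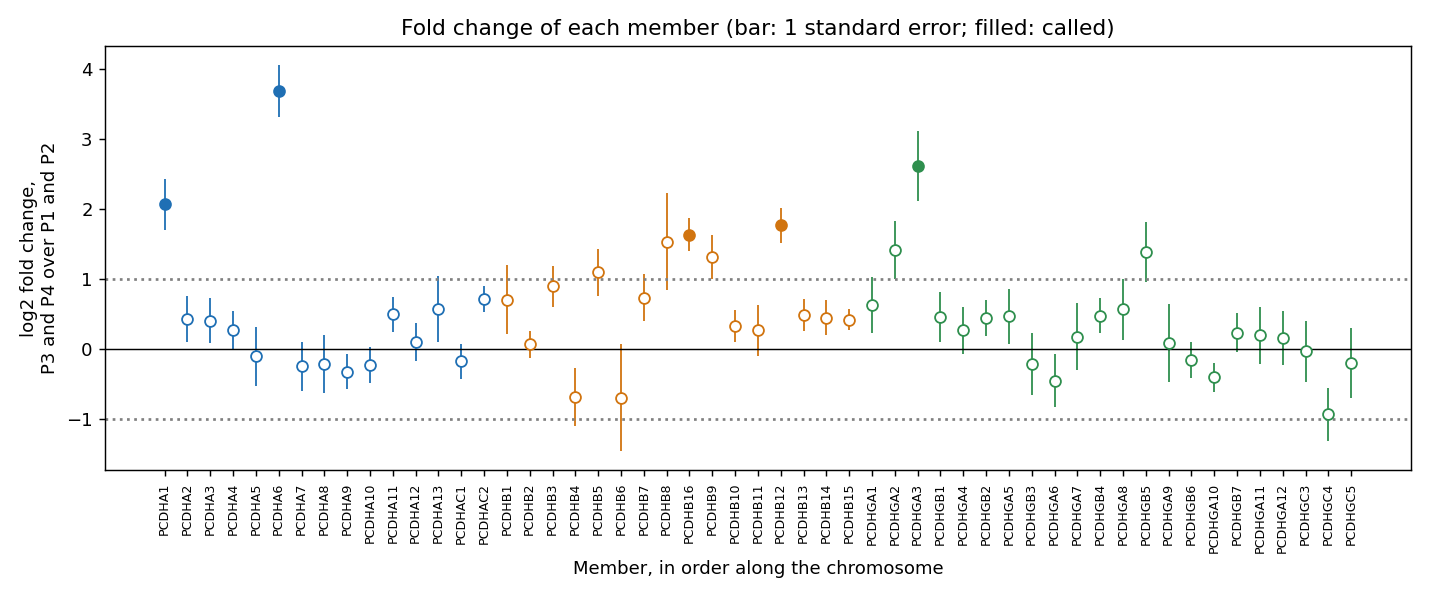
Log2 fold change of each member in P3 and P4 over P1 and P2 hESCs with 1 standard error, in order along the chromosome; filled points passed both thresholds and dotted lines mark an absolute log2 fold change of 1. The 5 filled points lie in all 3 clusters, and PCDHA6 has the highest value, 3.69.

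PCDHA6, an alpha member with a variable exon of its own, showed the widest separation. Its expected counts were 35 and 10 in P1, 17 and 18 in P2, 274 and 214 in P3, and 251 and 174 in P4 hESCs, which is 1 and 0.315, 0.414 and 0.504, 8.66 and 5.97, and 8.62 and 5.85 CPM. Every late sample had at least 5.85 CPM and no early sample more than 1 CPM, and P3 and P4 hESCs did not differ beyond the standard error (log2 fold change -0.01, SE 0.41). The log2 fold change of late over early cultures was 3.69 (SE 0.37, adjusted p = 2.0e-04, edgeR), and it stayed between 3.51 and 4.12 when any 1 sample was left out. PCDHA6 held 0.443% of the summed alpha TPM in P1 replicate 2 and 8.05% in P3 replicate 2. About 50% of its transcript windows are unique in the region.

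PCDHA1, the first gene of the alpha cluster, had 1.26 and 1.45 CPM in P1, 0.974 and 1.04 in P2, 4.74 and 2.01 in P3, and 7.62 and 5.45 in P4 hESCs. Its late samples were all above its early samples, with P3 replicate 2 the closest to them. The log2 fold change was 2.07 (SE 0.37, adjusted p = 0.0073, edgeR). This call was kept only without P3 replicate 2 and was lost without any other single sample, with log2 fold changes of 1.78 to 2.33. PCDHA10 and PCDHA11, the abundant alpha members, had values of -0.22 and 0.50 and did not pass.

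PCDHB12 and PCDHB16, which share no exons with another member, passed by edgeR with or without any single sample. By limma, PCDHB12 passed on log2(TPM + 1) but not on log2(TPM + 0.1). PCDHB16 passed on neither scale (limma adjusted p = 0.0166 and 0.0216). Exons of PCDHB16 overlap AC244517.6 and AC244517.8 on the same strand. Of the transcript windows of PCDHB16, 88.9% are unique in the region, against 94.2% for PCDHB12. PCDHB12 had 2.46 and 2.96 CPM in P1, 1.73 and 2.21 in P2, 7.14 and 6.72 in P3, and 10.5 and 7.6 in P4 hESCs. The late samples were all more than double the early ones, and the log2 fold change was 1.77 (SE 0.25, adjusted p = 0.00171, edgeR). PCDHB16 had 2.78 and 4.82 CPM in P1, 5.04 and 5.72 in P2, 15 and 13.5 in P3, and 15.7 and 13.3 in P4 hESCs. Again the groups did not overlap, and P3 and P4 hESCs had nearly the same mean. The log2 fold change was 1.64 (SE 0.23, adjusted p = 0.00174, edgeR). PCDHB2, the most abundant beta member, had a value of 0.07 (SE 0.19) with groups that overlapped in CPM. In TPM its late samples (11.73 to 13.38) were all below its early samples (13.45 to 17.54).

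In all, 8 of 16 beta members had every late sample above every early sample in CPM (PCDHB3, PCDHB5, PCDHB7, PCDHB9, PCDHB12, PCDHB13, PCDHB15 and PCDHB16), compared with 3 of 15 alpha members (PCDHA1, PCDHA6 and PCDHAC2) and 1 of 22 gamma members (PCDHGA3). Over all genes tested, 8.38% had this order and 9.19% had the opposite order, which no member had. In TPM, where 3.3% of genes had the order, the numbers were 4 of 16, 3 of 15 and 0 of 22, and 2 of 53 members (3.77%) had the opposite order, which 9.13% of all genes had. The 3 alpha members were then PCDHA1, PCDHA6 and PCDHA11, without PCDHAC2. The 2 members with the opposite order in TPM were PCDHB2 and PCDHGA10, both among the most abundant of their clusters. PCDHGA10 had 4.85 to 6.75 TPM in early and 3.33 to 4.84 TPM in late samples. Its log2 fold change by edgeR was -0.40 (SE 0.21), which did not pass.

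PCDHGA3 was the only gamma member that passed. It had 0.344 and 0.347 CPM in P1, 0.122 and 0.224 in P2, 0.727 and 1.09 in P3, and 2.71 and 1.88 in P4 hESCs, or 5 to 12 expected counts in early and 23 to 79 in late samples. In CPM every late sample exceeded every early sample, and the 2 samples of P4 hESCs were the highest. In TPM the groups overlapped, with 0.14 in P3 replicate 1 and 0.17 in P1 replicate 1. The log2 fold change was 2.62 (SE 0.50, adjusted p = 0.00949, edgeR). Like that of PCDHA1, this call was lost without any of 7 samples and kept only without P3 replicate 1 (2.25 to 2.87). PCDHGB5 had a log2 fold change of 1.39 (adjusted p = 0.0739) and did not pass. It passed in the model with 4 groups (1.58), as did PCDHB5 (1.27), and without P1 replicate 2 (2.03).

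**Figure D4:**
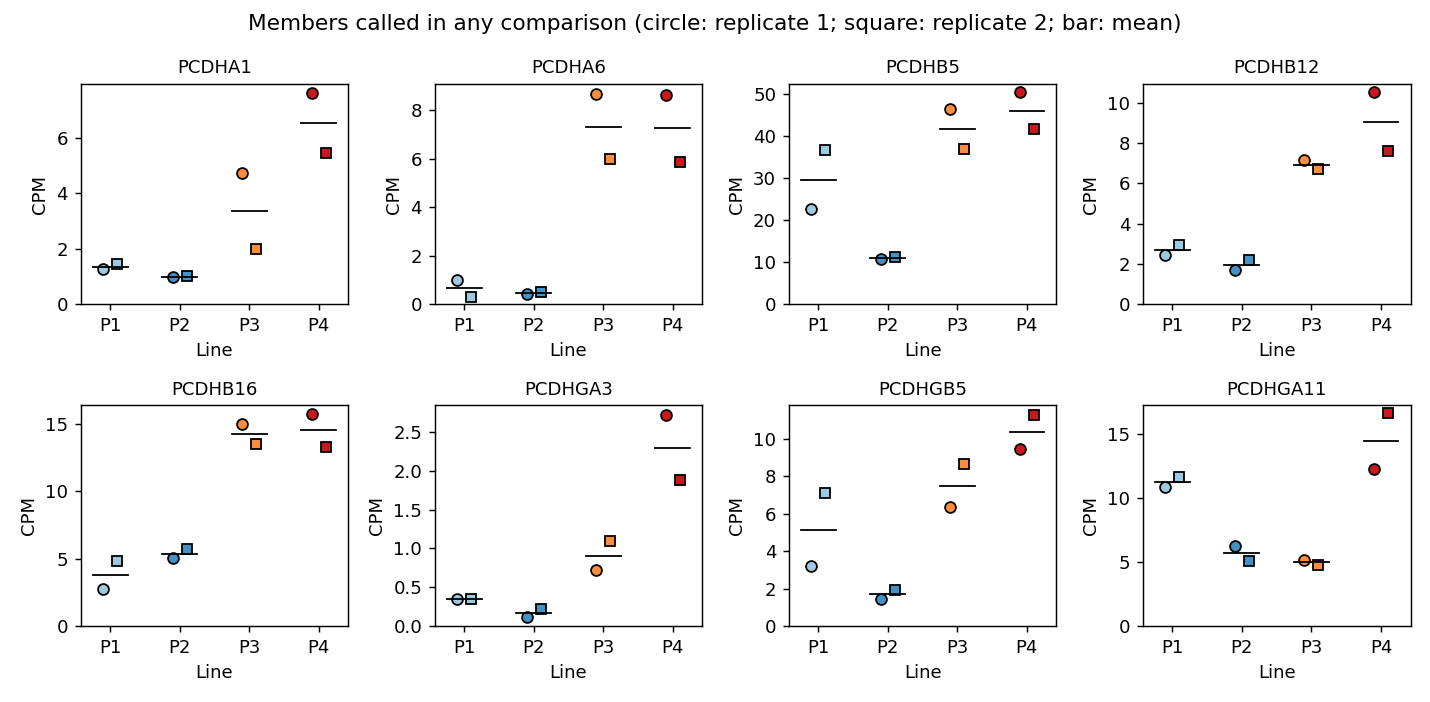
CPM of the 8 members that passed both thresholds in any comparison, for replicate 1 (circles) and replicate 2 (squares) of each line, with the mean as a bar. PCDHA6, PCDHB12 and PCDHB16 have low P1 and P2 and high P3 and P4 samples, while PCDHB5 and PCDHGB5 are lowest in P2 and PCDHGA11 is lowest in P3 hESCs.

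Mitochondrial genes took over 15% of the counts in 3 samples, as given above. In the 5 samples under 15%, a fit added after the data had been seen called 0 members (15 with an unadjusted p under 0.05) and 61 of 20230 genes (3572 with an unadjusted p under 0.05) by edgeR. The log2 fold changes there were 3.20 for PCDHA6 (adjusted p = 0.0176), 1.74 for PCDHB12 (0.0277), 1.56 for PCDHB16 (0.0674), 2.68 for PCDHGA3 (0.064) and 1.76 for PCDHA1 (0.114), and 43 of 53 members were positive. The part of the mitochondrial share in these results was otherwise not tested. Without mitochondrial genes in the table, 5 members passed.

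Single lines were then compared to place the differences between passages. These comparisons share samples, so they are set side by side and not counted as independent. From P1 to P2 hESCs, 0 members passed (14 had an unadjusted p under 0.05, all lower in P2, DESeq2 called 1, PCDHB5, and limma 0), and 0% of all genes passed (9.14% had an unadjusted p under 0.05). The median log2 fold change of the members was -0.52, with 44 of 53 negative, against -0.01 over all genes. All 13 alpha members other than PCDHAC1 and PCDHAC2 were negative. PCDHB5 had the smallest p among the members (-1.41, SE 0.25, adjusted p = 0.0957, edgeR).

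From P2 to P3 hESCs, 4 members passed, all higher, beside 3.42% of all genes that passed (1.34% higher and 2.08% lower). PCDHA6 rose with a log2 fold change of 3.99 (SE 0.49, adjusted p = 4.7e-04, edgeR), and this call held without any 1 sample. PCDHB5 rose from 10.9 and 11.4 to 46.4 and 36.9 CPM (log2 fold change 1.90, SE 0.26, adjusted p = 7.7e-04). It had been at 22.8 and 36.6 CPM in P1 hESCs, so that its lower P3 sample lay just above its higher P1 sample, and the late over early comparison gave 1.10 (SE 0.34, adjusted p = 0.0703). PCDHGB5 rose from 1.44 and 1.96 to 6.35 and 8.67 CPM (2.15, SE 0.39, adjusted p = 0.00518), after 3.21 and 7.12 CPM in P1 hESCs. PCDHB12 rose as well (1.81, SE 0.31, adjusted p = 0.00349). Only PCDHA6 passed without P2 replicate 1 or without P2 replicate 2, and PCDHB12 was also lost without P3 replicate 1 and PCDHGB5 without P3 replicate 2. PCDHB16 narrowly missed (1.41, adjusted p = 0.0103). The median of the members was 0.60, with 44 of 53 positive, against -0.01 over all genes.

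From P3 to P4 hESCs, PCDHGA11 alone passed, beside 0.815% of all genes that passed (0.554% higher and 0.262% lower). Its CPM was 10.8 and 11.6 in P1, 6.26 and 5.07 in P2, 5.18 and 4.8 in P3, and 12.2 and 16.6 in P4 hESCs. The level of P4 hESCs was thus near that of P1 hESCs (P4 over P1, 0.37, SE 0.26), and both were above P2 and P3 hESCs. The log2 fold change of P4 over P3 hESCs was 1.53 (SE 0.27, adjusted p = 0.00993, edgeR). The call lay at the threshold and was kept only without P4 replicate 1. PCDHB8, named after its values were seen, had 0.442 and 0.446 CPM in P3 and 2.64 and 3.47 CPM in P4 hESCs (2.77, SE 0.58, adjusted p = 0.024) and passed by DESeq2 and without the filter on low counts. The median of the members was 0.02, with 27 of 53 positive.

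From P1 to P4 hESCs, the widest interval, 5 members passed, all higher, beside 2.11% of all genes that passed (0.954% higher and 1.16% lower). They were PCDHA6 (log2 fold change 3.44, SE 0.47), PCDHGA3 (2.72, SE 0.48), PCDHA1 (2.27, SE 0.42), PCDHB16 (1.93, SE 0.30) and PCDHB12 (1.74, SE 0.30), with adjusted p between 0.0012 and 0.00806 by edgeR. The number fell to 1 without P1 replicate 1, P1 replicate 2 or P4 replicate 1, and to 3 without P2 replicate 2 or P4 replicate 2. The median of the members was 0.08, with 28 of 53 positive, against -0.01 over all genes.

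Of the 5 C-type members, 0 passed by edgeR in any comparison (1 to 3 per comparison had an unadjusted p under 0.05, and limma called 0, while over all genes 9.14% to 29.2% had such a p). PCDHGC3, the most abundant gamma member, had 29.5 and 46.9 CPM in P1, 21.4 and 20.8 in P2, 58.7 and 26.3 in P3, and 19.4 and 11.5 in P4 hESCs. The 2 samples of P3 hESCs differed by more than double, and in P1, P3 and P4 hESCs the higher sample was the one with the higher mitochondrial share, whose part in the result was not tested. P4 over P3 hESCs gave -1.46 (SE 0.37, adjusted p = 0.051, edgeR), and DESeq2 called it (adjusted p = 0.00152), as it did for P4 over P1 hESCs. PCDHGC4 had 3.84 and 5.17 CPM in P1, 5.48 and 7.09 in P2, 5.4 and 2.51 in P3, and 1.41 and 1.98 in P4 hESCs, the latter being the lowest (P4 over P1, -1.41, SE 0.40, adjusted p = 0.0598). C-type members held 16.4% of the summed gamma TPM in P4 replicate 2 and 48.2% in P3 replicate 1. Of the alpha C-type members, PCDHAC2 had every late sample above every early one in CPM (0.72, SE 0.18, adjusted p = 0.0372, edgeR), and PCDHAC1 did not (-0.17, SE 0.25). In TPM the samples of PCDHAC2 overlapped, with 2.30 to 4.48 in early and 3.59 to 5.79 in late samples. PCDHGC5 stayed under 0.4 TPM in all samples.

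**Figure D5:**
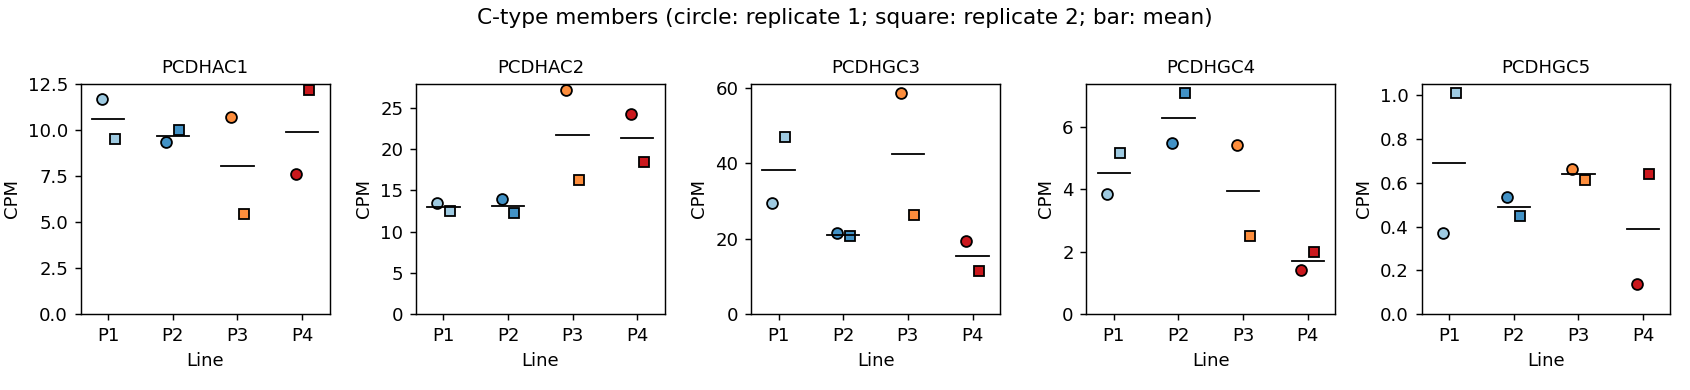
CPM of the 5 C-type members for replicate 1 (circles) and replicate 2 (squares) of each line, with the mean as a bar. PCDHGC3 and PCDHGC4 have their lowest means in P4 hESCs (15.4 and 1.7 CPM), and the 2 samples of a line lie far apart for PCDHGC3 in P1 and P3 hESCs.

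Genes that act on these promoters or with these proteins were listed as well. Of 30 regulators of clustered protocadherin promoters and chromatin, 0 passed in P3 and P4 against P1 and P2 hESCs (7 with an unadjusted p under 0.05, and 0 by DESeq2 or limma), with a median of 0.06. The most abundant were TRIM28, a corepressor (0.29, SE 0.16), DNMT3B, a DNA methyltransferase (0.23, SE 0.15), and CBX3, a heterochromatin protein (0.27, SE 0.14). CTCF had a log2 fold change of 0.06 (SE 0.15) and SMCHD1, which acts in silencing of these clusters, of 0.002 (SE 0.16), both named after their values were seen. STAG1, a cohesin subunit, passed in P3 over P2 hESCs alone, with 5.48 and 10.52 TPM in P3 and 5.07 and 3.73 TPM in P2 hESCs. Of 11 non-clustered protocadherins, PCDH11X passed (1.48, SE 0.23, adjusted p = 0.00307, edgeR). It had 2.52 to 7.48 TPM in early and 9.11 to 18.91 TPM in late samples, and the median of this list was -0.05. Of 18 partners of the cytoplasmic tails, 0 passed (5 with an unadjusted p under 0.05, 0 by DESeq2 or limma), with a median of 0.06. RAC1 (0.36, SE 0.14), CTNNB1 (-0.03, SE 0.14) and SEPTIN7 (0.50, SE 0.19) were the most abundant.

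Other protein-coding genes lie within 500000 bases of the clusters. Of 25 tested neighbours, 0 passed in P3 and P4 against P1 and P2 hESCs (6 with an unadjusted p under 0.05, and 0 by DESeq2 or limma), and their median was 0.08. The most abundant were ZMAT2 (0.20, SE 0.17), PCDH1 (-0.28, SE 0.23) and NDUFA2 (0.25, SE 0.13). TAF7, named after its values were seen, a general transcription factor subunit whose gene lies between the beta and gamma clusters, had 0.57 (SE 0.13, adjusted p = 0.0264).

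Markers of other cell types were read beside these results, because clustered protocadherins are abundant in neural cells. Of 15 neural markers, 11 were tested and 0 passed in the late over early comparison (3 with an unadjusted p under 0.05, all higher, and 0 by DESeq2 or limma), with a median of 0.57. Their summed level was 287 to 349 TPM in early and 292 to 419 TPM in late samples, and NEUROG2 was at or under 3 counts in every sample. DCX, a marker of young neurons named after its values were seen, had 0.90 to 1.98 TPM in early and 1.50 to 3.15 TPM in late samples (0.75, SE 0.19, adjusted p = 0.0339). From P2 to P3 hESCs, NCAM1 passed and the neural median was 0.70. There 6 neural markers had an unadjusted p under 0.05, all higher, and DESeq2 called 2 higher. From P3 to P4 hESCs the neural median was -0.63 and 0 passed by edgeR. There 1 marker was higher and 5 were lower at an unadjusted p under 0.05, and DESeq2 called 4 lower. Over all genes tested, 29.2% and 19.2% had such a p in these 2 comparisons. Summed mesendoderm markers were at 1.96 to 3.77 TPM in early and 1.17 to 4.25 TPM in late samples. Summed fibroblast or stroma markers were at 462 to 631 TPM in early and 493 to 778 TPM in late samples, with LUM and COL3A1 at or under 3 counts throughout. THY1, named after its values were seen, was the largest part of this sum in every sample. It had 232.40 to 459.62 TPM in early and 396.86 to 647.81 TPM in late samples (0.55, SE 0.18). COL1A1 (-0.64, SE 0.27), COL1A2 (-0.23, SE 0.23) and PDGFRB (-0.90, SE 0.19) went the other way, and the median of this list was -0.43. Of the tested markers of these 2 lists (4 each), 0 passed (3 each with an unadjusted p under 0.05, and 1 mesendoderm and 0 fibroblast or stroma markers by DESeq2) in the late over early comparison. Between single lines, 2 mesendoderm markers passed. FOXA2, an endoderm factor, had 0.37 and 0.32 TPM in P2, 2.72 and 3.63 in P3, and 0.26 and 0.08 in P4 hESCs, and it passed higher from P2 to P3 and lower from P3 to P4 hESCs. EOMES, a mesendoderm factor, had 1.52 and 0.95 TPM in P2 and 0.03 and 0.04 TPM in P3 hESCs and passed lower from P2 to P3 hESCs. Of 11 pluripotency markers, 0 passed (3 with an unadjusted p under 0.05, 0 by DESeq2 or limma), with a median of 0.10. The part of neural RNA in the protocadherin results was not tested, and in these bulk samples fewer or more cells of a type cannot be told apart from less or more RNA per cell.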

How the data were processed

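Total RNA of 8 samples was made into strand-specific mRNA libraries. The submitters' processing notes name FastQC, Trim Galore, STAR 2.7.3a, RSEM 1.3.3 and GRCh38, and the annotation release is not given in the sources used here. The authors deposited, per sample and gene, an RSEM expected count (not normalized) and a TPM value. Here expected counts were rounded and tested in R 4.3.3 with edgeR 4.0.16 (TMM, filterByExpr by line, 19499 of 60675 genes, quasi-likelihood test), with 2 groups of 4 samples for late over early and 4 groups of 2 for single lines. The SE is the log2 fold change divided by the square root of F. CPM values use the TMM factors. DESeq2 1.42.0 and limma 3.58.1 served as alternatives. The code was tested on simulated counts. Members were found by identifier and GENCODE 29 position. The members and lists were chosen with earlier results of these data known. Members named were those passing in any comparison, the 3 highest in TPM per cluster and the C-type members, 19 in all. From the regulator, protocadherin, partner and neighbour lists, genes that passed were named, or else the 3 most abundant, and cell type markers were named where they passed or after their values were seen. The 2 fits on the mitochondrial share were added after the data had been seen. The 2 samples of a line differed beyond sampling noise (mean chi-squared per gene 20.3 to 152). Depth limits PCDHA6, for example, to 10 to 35 counts in early samples, and counting error does not cover PCR duplicates.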

Additional observations from a re-analysis of the deposited data

Results flagged for a closer look

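Of 44 sets of 4 samples checked (the early and the late samples of each named member and each cluster sum, in log2 CPM), 2 held a sample far from the others, and chance gives about 2.2. For PCDHB2, P1 replicate 2 had 41.8 CPM while the other early samples had 26.2 to 28.2 CPM (gap over range 0.841). For PCDHGC5, P4 replicate 1 had 0.137 CPM, or 4 counts, while the other late samples had 0.614 to 0.664 CPM (gap over range 0.949).

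The protein-coding members leave out 6 pseudogenes of the locus, of which 3 had more than 3 expected counts in every sample. PCDHB17P had at least 9 counts, PCDHGB8P at least 4 and PCDHGB9P at least 4. PCDHB17P was higher in late samples, with 0.344 and 0.315 CPM in P1, 0.39 and 0.252 in P2, 0.853 and 1.7 in P3, and 2.44 and 2.15 in P4 hESCs (log2 fold change 2.44, SE 0.38, adjusted p = 0.00344, edgeR). PCDHB18P had 3 to 16 counts in early samples, 23 and 24 in P3 and 122 and 159 in P4 hESCs (3.53, adjusted p = 0.0202). PCDHB19P had 0 to 10 counts in P1, P2 and P3 and 32 and 25 in P4 hESCs.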

How the results depend on the processing

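In P3 and P4 against P1 and P2 hESCs, 5 members passed. The number was 5 with DESeq2 size factors in edgeR and without mitochondrial genes, 6 with DESeq2 and without the low-count filter, 7 in the model with 4 groups and at an adjusted p under 0.05 with no minimum fold change, 1 or 2 with limma on log2(TPM + 0.1) or log2(TPM + 1), 0 in the 5 samples under 15% mitochondrial counts, and 3 to 4 without a single replicate. With DESeq2 the numbers were 1 for P2 over P1, 8 for P3 over P2, 3 for P4 over P3 and 8 for P4 over P1 hESCs, and without the filter 2, 9, 3 and 9. Limma gave 0, 1, 0 and 1 with the pseudocount 0.1 and 0, 1, 0 and 2 with the pseudocount 1. At an adjusted p under 0.05 with no minimum fold change the numbers were 0, 8, 2 and 7, and with only the 4 samples compared 0, 5, 0 and 4. Without a single replicate they ranged over 0 to 0, 1 to 5, 0 to 1 and 1 to 5. On the limma scales the median of all genes shifted by -0.14 and -0.09 in the late over early comparison and by up to -0.31 in P3 over P2 hESCs.

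A replicate block gave 3 members in the late over early comparison (without PCDHA1, at 2.03 with an adjusted p of 0.0142, and PCDHGA3, at 2.62 with an adjusted p of 0.0186) and 0, 4, 0 and 5 in the others. Replicate differences of the lines correlated at -0.0901 to 0.138, so the samples share only a number.

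The summed beta level differed by 0.71 in CPM, 0.45 in TPM and 0.97 without PCDHB2. Leaving out 1 sample gave 0.61 to 0.89 for beta, 0.24 to 0.46 for alpha and -0.05 to 0.27 for gamma.

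Members with small late over early differences changed sign. PCDHB2 was at -0.22 and -0.21 with limma, -0.003 without P2 replicate 1 and -0.06 to 0.25 without any 1 sample. PCDHGB7 was at -0.02 and -0.01 with limma and -0.12 to 0.43 without 1 sample. PCDHGA11 was at -0.04 with limma (pseudocount 0.1) and -0.19 to 0.43 without 1 sample. PCDHGC3 ranged from -0.63 to 0.28 (0.02, 0.12 and 0.24 without P3 replicate 2, P4 replicate 1 and P4 replicate 2), PCDHAC1 from -0.35 to 0.01, and PCDHGC5 from -0.36 to 0.19 (0.12 without P4 replicate 1, and 0.46 in the 5 samples under 15%). The cause of these changes was not tested.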
